A study of Mus musculus with 30 samples.

Results

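Aminoacyl-tRNA synthetases are the enzymes that join each amino acid to its own transfer RNA before translation. Rows of the count table were taken by symbol, as a synthetase prefix (Aars, Cars, Dars and so on) followed by nothing or by 1, 2, 3, l, l2, a or b. The rule found 38 genes of the 14173 in the table. By the same rule, names ending in 2 were taken as mitochondrial, which gave 18 genes, and the other 20 as cytosolic. The name is an imperfect guide in 3 cases. Tarsl2 ends in 2 but encodes a cytosolic threonyl-tRNA synthetase, and Gars and Kars each encode both the cytosolic and the mitochondrial form of their enzyme.

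The livers came from male C57BL/6J mice, 1 library per mouse and 6 mice per diet. Casein was fed at 20% (Cas-20%, with 0.57 g methionine and 0.41 g cysteine per 100 g) or at 5% (Cas-5%, 0.15 g and 0.1 g). The authors added cystine to both casein diets, and these cysteine values include it. Soy protein was fed at 20% without additions (Soy-20%, 0.22 g of each), at 20% with added sulfur amino acids (Soy-20% + SAA, 0.58 g methionine and 0.41 g cysteine), or at 11.5% (Soy-10%, 0.13 g of each). All 30 mice were on their diet for 12 weeks and were 6 months old and fasted for 4 h at collection. The low-protein diets lowered every amino acid of their protein source, not only methionine and cysteine, so the deficits cannot be told apart.

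As background, each cell needs a cytosolic set of synthetases for the translation of nuclear genes and a nuclear-encoded mitochondrial set for the few proteins made inside mitochondria. When a transfer RNA stays uncharged, the kinase GCN2 (Eif2ak4) phosphorylates the initiation factor eIF2, general translation slows, and the transcription factor ATF4 is made from its stored messenger. ATF4 is known to act on genes of amino acid synthesis and uptake and on many of the cytosolic synthetases.

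Read counts summed to between 7694015 and 14565542 per liver. The hepatocyte markers Alb, Apoa1, Ttr, Cps1, Serpina1c and Tat were detected in all 30 livers, and of the acinar enzymes measured Prss2, Ctrb1, Cpa1, Cpb1 and Pnlip were at 0 in 24 to 26 of them. Cela1, the other acinar enzyme measured, was above 0 in all 30. The library of Soy-10% liver 4 stood apart, with a summed acinar level of 6910 normalized counts against 164 to 629 in the other 29. In 4 libraries, Soy-20% + SAA livers 3 to 6, counts followed the GC content of transcript 3′ ends, liver 3 the least. Slopes on the log2 scale per 10% GC were −0.06 to 0.03 in the other 26 libraries. They were 0.05 in liver 3 and 0.17 to 0.19 in livers 4 to 6. Values for soy are therefore given also with that slope in the fit or without those 4 livers where the call or the size changes, and against Soy-20%. In bulk liver, fewer cells of a type and less RNA per cell cannot be told apart.

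All 38 members passed the filter on low counts in every comparison. Raw counts were under 10 in at least 1 liver only for Mars2 and Pars2. Below, levels are counts divided by the authors' size factor of each library (normalized counts), and differences are log2 fold changes ± standard error from the quasi-likelihood test, with p adjusted over all genes tested. A member is said to have risen or fallen where the adjusted p was 0.05 or less.

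A part of the cytosolic synthetase transcripts rose under casein restriction. Between Cas-5% and Cas-20%, 8 of 20 cytosolic members rose and none fell, whereas 1 of 18 mitochondrial members rose and 1 fell. Over all 12076 genes tested, 11.6% rose and 13.3% fell. The median log2 fold change was 0.19 for the cytosolic members, −0.07 for the mitochondrial members and 0.02 for all genes. Of the cytosolic members 16 had a positive value and 4 a negative one. No member reached an absolute log2 fold change of 1, a size that 3.48% of all genes reached together with the adjusted p. Markers of other cells moved between the same diets. The summed levels of the 4 stellate and matrix markers had medians of 3490 in Cas-20% and 4298 in Cas-5%, those of the 3 endothelial markers 1534 and 1630, and those of the 4 red cell markers 22110 and 14590. The 6 acinar markers measured had medians of 435 and 261, the 6 hepatocyte markers 818400 and 904000, and the 5 immune markers 2015 and 2047. Of the acinar markers only Cela1 was detected in every liver, and the others were undetected in most. The lowest Cela1 level, 164 normalized counts, was also the lowest acinar sum. The acinar medians therefore cannot be read as a change in acinar content. Dcn, at 2527 to 4266 normalized counts, made up most of the stellate and matrix sum. The part of these markers in the result was not tested.

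**Figure D1:**
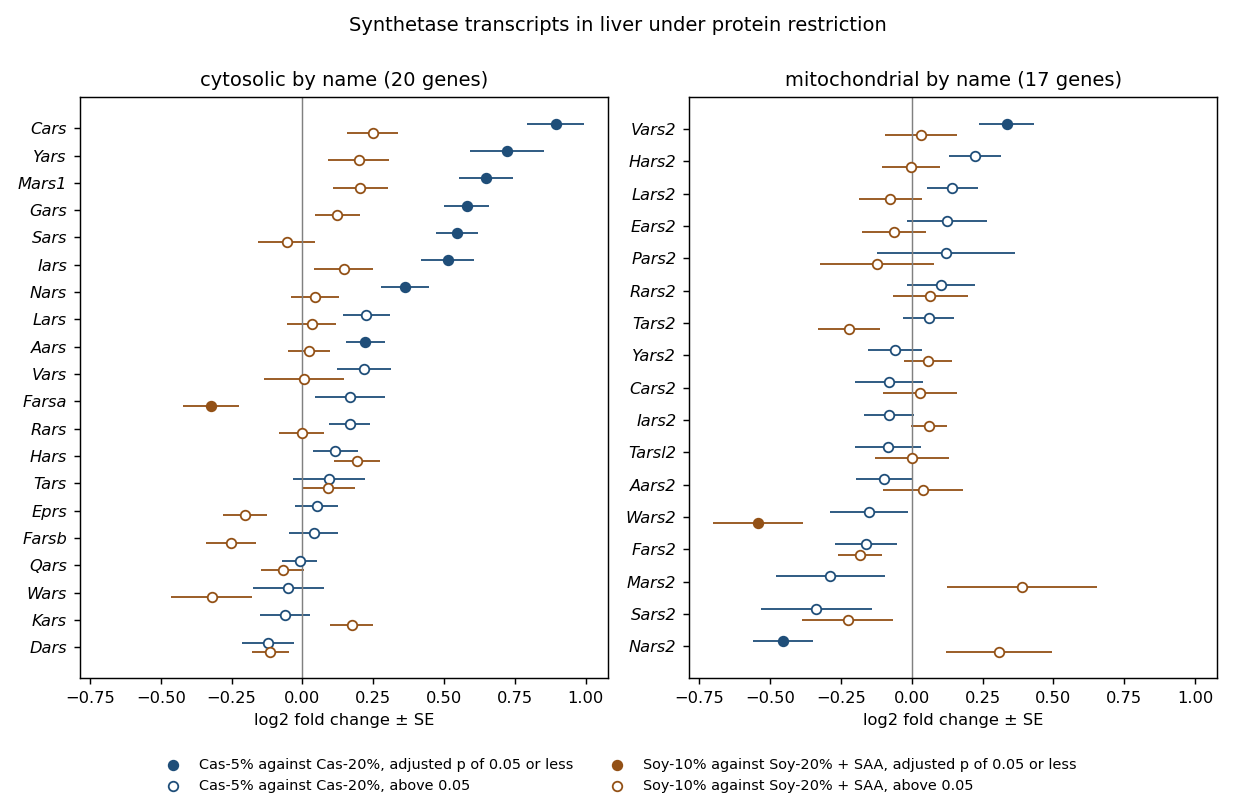
Log2 fold change ± SE of 37 of the 38 members, with the 20 cytosolic by name on the left and 17 mitochondrial by name on the right, for Cas-5% against Cas-20% (blue) and Soy-10% against Soy-20% + SAA (brown); filled points have an adjusted p of 0.05 or less. Blue filled points stand on the right of 0 for 8 cytosolic members and Vars2 and on the left for Nars2, and the brown filled points are Farsa and Wars2.

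Cysteinyl-tRNA synthetase, Cars (chr7:143557230-143600090, GRCm38), had the highest fold change of the 38. Its level ran from 139 to 215 normalized counts in the Cas-20% livers with a median of 173, and from 297 to 344 in the Cas-5% livers with a median of 319. Every Cas-5% liver was above every Cas-20% liver, and the log2 fold change was 0.89 ± 0.10 (1.86-fold, adjusted p = 6.51e-06). Its mitochondrial counterpart Cars2 overlapped between the diets, with 78.7 to 116 normalized counts in Cas-20% and 68.6 to 102 in Cas-5%, and a log2 fold change of −0.08 ± 0.12 (adjusted p = 0.671).

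Methionyl-tRNA synthetase of the cytosol, Mars1 (chr10:127296221-127311786), charges both initiator and elongator transfer RNA with methionine. Its levels were 343 to 549 normalized counts in Cas-20%, median 419, and 577 to 731 in Cas-5%, median 680. The groups did not overlap, and the log2 fold change was 0.65 ± 0.10 (adjusted p = 0.000101). The mitochondrial Mars2 had few counts, 21.0 to 33.2 normalized counts in Cas-20% and 12.6 to 26.5 in Cas-5%, and its log2 fold change of −0.29 ± 0.19 did not pass the test (adjusted p = 0.302).

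Enzymes for serine and glycine rose to a similar size. Seryl-tRNA synthetase Sars (chr3:108424865-108445209) had 442 to 542 normalized counts in Cas-20%, median 515, and 643 to 804 in Cas-5%, median 715, a log2 fold change of 0.55 ± 0.07 (adjusted p = 4.39e-05). Glycyl-tRNA synthetase Gars (chr6:55038007-55079500) had 260 to 345 normalized counts, median 293, against 384 to 481, median 455, a log2 fold change of 0.58 ± 0.08 (adjusted p = 5.68e-05). In both genes the 6 livers of one diet lay wholly above the 6 of the other.

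Tyrosyl-tRNA synthetase Yars (chr4:129189760-129219607) and isoleucyl-tRNA synthetase Iars (chr13:49682100-49734267) completed the members without overlap. Yars had 112 to 188 normalized counts in Cas-20%, median 149, and 204 to 283 in Cas-5%, median 240, a log2 fold change of 0.72 ± 0.13 (adjusted p = 0.000592). Iars had 156 to 228 normalized counts, median 197, against 254 to 307, median 269, a log2 fold change of 0.51 ± 0.09 (adjusted p = 0.000666). Thus 6 of 38 members, all cytosolic, were higher in Cas-5% with no overlap, and no member was lower with none. Among all genes tested 5.14% were higher and 7.73% lower in this way.

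For asparagine both enzymes passed the test, in opposite directions. Cytosolic Nars had 1036 to 1499 normalized counts in Cas-20%, median 1292, and 1493 to 1760 in Cas-5%, median 1640, with ranges that overlapped only between 1493 and 1499 and a log2 fold change of 0.36 ± 0.09 (adjusted p = 0.00504). Mitochondrial Nars2 (chr7:96951505-97064758) had 100 to 147 normalized counts, median 124, against 82.7 to 103, median 89.7, a log2 fold change of −0.46 ± 0.11 (adjusted p = 0.00448), the lowest of the 38.

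The remaining members called were alanyl-tRNA synthetase Aars and mitochondrial valyl-tRNA synthetase Vars2, which came next by adjusted p and are named after their values were seen. Vars2 rose by 0.34 ± 0.10 on the log2 scale (adjusted p = 0.0169) and Aars by 0.22 ± 0.07 (adjusted p = 0.0237). The Aars groups overlapped, with 959 to 1146 normalized counts in Cas-20% and 1094 to 1312 in Cas-5%, and its call was lost when any 1 of 4 livers was left out (Cas-20% livers 3, 4 and 5 and Cas-5% liver 2), with an adjusted p of up to 0.0641. The other cytosolic values lay between −0.12 ± 0.09 for Dars and 0.22 ± 0.08 for Lars, and none of them passed the test.

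**Figure D2:**
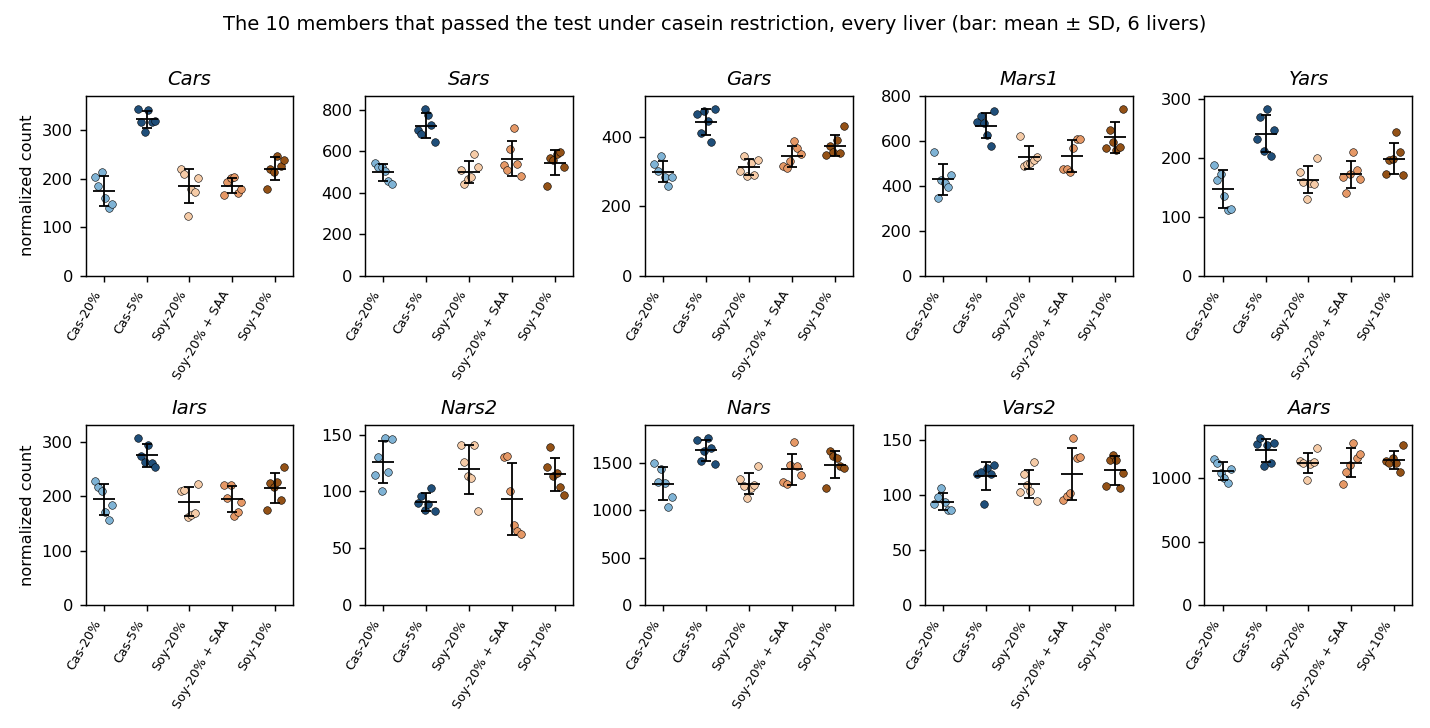
Normalized counts (linear axis from 0) of the 10 members that passed the test between Cas-5% and Cas-20%, in all 5 diets, with a point for every liver and a bar for the mean ± SD of 6 livers. The Cas-5% livers stand above those of Cas-20% for Cars (297 to 344 against 139 to 215) and below them, with overlap at the edge, for Nars2 (82.7 to 103 against 100 to 147).

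Start-site sequences were compared for these members, because amino acid response elements, the sites through which ATF4 and its partners act, commonly hold the core TGATGNAA. RefSeq promoters (GRCm38.p6, 250 bases before to 50 after the start) matched 28 of the 38 members. The core, searched on both strands, was in 5 of the 28 (17.9%), against 4.51% of 27025 genes with a promoter of that length. The form TTGCATCA, which is the reverse complement of TGATGCAA and so a subset of the first, was in 4 of them (14.3%), against 1.03% of the genes. The 5 members were Aars, Gars, Iars, Tars and Yars, all cytosolic. Of these 5, 4 rose in Cas-5% and Tars did not, beside 11.6% of all genes. Of the 8 cytosolic members with a promoter and no core, 2 rose. A link between the core and the rise was not tested. None of the 15 mitochondrial members with a promoter held the core. Mars1, shown for contrast, and Sars rose without it in this window, and Cars and Nars had no matched entry. A match is a string of letters and not a measured site.

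The windows below run from 130 bases before to 20 after the start, 5′ to 3′ on the strand of the gene, and capitals mark matches to TGATGNAA or its reverse complement. They are Yars (chr4:129189773-129189922, plus), Gars (chr6:55037871-55038020, plus), Iars (chr13:49682000-49682149, plus), Mars1 (chr10:127311767-127311916, minus), Aars (chr8:111033712-111033861, plus) and Tars (chr15:11399639-11399788, minus). Aars and Tars were added after their values were seen.
Yars: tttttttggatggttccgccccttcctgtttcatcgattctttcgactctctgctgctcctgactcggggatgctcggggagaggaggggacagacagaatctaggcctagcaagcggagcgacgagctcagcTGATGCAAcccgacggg
Gars: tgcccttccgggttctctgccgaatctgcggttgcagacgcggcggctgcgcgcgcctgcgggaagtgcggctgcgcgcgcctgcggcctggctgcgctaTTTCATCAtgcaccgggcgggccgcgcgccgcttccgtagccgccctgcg
Iars: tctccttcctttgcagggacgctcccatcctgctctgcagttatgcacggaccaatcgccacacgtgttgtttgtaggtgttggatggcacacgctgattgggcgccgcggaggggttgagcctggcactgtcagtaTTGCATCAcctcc
Mars1: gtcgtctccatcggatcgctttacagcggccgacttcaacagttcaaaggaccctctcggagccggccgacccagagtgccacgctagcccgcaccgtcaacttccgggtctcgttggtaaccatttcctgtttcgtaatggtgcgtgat
Aars: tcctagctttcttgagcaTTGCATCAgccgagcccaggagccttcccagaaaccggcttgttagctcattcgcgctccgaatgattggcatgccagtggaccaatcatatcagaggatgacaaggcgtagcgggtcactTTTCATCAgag
Tars: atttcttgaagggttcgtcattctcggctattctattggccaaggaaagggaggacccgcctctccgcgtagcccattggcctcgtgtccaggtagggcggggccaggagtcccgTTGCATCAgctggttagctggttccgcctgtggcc
The match begins at base 4 after the start in Yars, at base 8 after it in Iars, 30 bases before it in Gars and 15 before it in Tars. Aars holds a match 112 bases before the start and another at base 10 after it. Tars, with the core, had a casein log2 fold change of 0.09 ± 0.13 (adjusted p = 0.635).

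Soy restriction did not raise synthetase transcripts past the test. Between Soy-10% and Soy-20% + SAA no member rose, where 8.51% of 11983 genes did, and 2 members fell, where 8.47% did. The medians were 0.03 for the cytosolic members, −0.00 for the mitochondrial members and −0.01 for all genes. No member reached an absolute log2 fold change of 1, which 2.57% of genes did. None had groups without overlap, where 2.9% of genes were higher and 3.31% lower in that way.

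Mitochondrial tryptophanyl-tRNA synthetase Wars2 fell from 32.5 to 54.6 normalized counts in Soy-20% + SAA, median 42.4, to 21.3 to 35.5 in Soy-10%, median 29.7, a log2 fold change of −0.54 ± 0.16 (adjusted p = 0.0327), the lowest of the 38. Farsa, the alpha subunit of cytosolic phenylalanyl-tRNA synthetase, fell from 321 to 493, median 414, to 283 to 356, median 331, a log2 fold change of −0.32 ± 0.10 (adjusted p = 0.0385). In both genes the ranges overlapped, and the higher levels of the control were those of the livers with a GC slope. For Farsa, Soy-20% + SAA livers 1 and 2 had 357 and 321 normalized counts and livers 3 to 6 had 421, 443, 493 and 407. With the slope in the fit the log2 fold changes were −0.25 ± 0.19 for Wars2 (adjusted p = 0.547) and −0.10 ± 0.10 for Farsa (adjusted p = 0.65). Without Soy-20% + SAA livers 3 to 6, only livers 1 and 2 were left as the control. The log2 fold changes were then −0.26 ± 0.23 for Wars2 (adjusted p = 0.635) and −0.07 ± 0.10 for Farsa (adjusted p = 0.804). Both calls ended, and no member was called under either setting. What the smaller control group contributed to the lost calls was not tested. Both calls also ended without any 1 of Soy-20% + SAA livers 3 to 6, and without Soy-10% liver 1, 5 or 6. Without Soy-10% liver 4, the library with acinar transcripts, the count stayed at 2.

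Several members next in order had an adjusted p above 0.05, with log2 fold changes in both directions. Farsb, the beta subunit of the phenylalanyl enzyme, was at −0.25 ± 0.09 (adjusted p = 0.0633), the bifunctional glutamyl-prolyl enzyme Eprs at −0.20 ± 0.08 (adjusted p = 0.0806) and Fars2 at −0.18 ± 0.08 (adjusted p = 0.109). With the GC slope in the fit these came to −0.006 for Farsb, −0.11 for Eprs and −0.07 for Fars2, and without Soy-20% + SAA livers 3 to 6 to −0.04, −0.07 and −0.12. Cars stood at 0.25 ± 0.09 (adjusted p = 0.0679), with 166 to 204 normalized counts in Soy-20% + SAA, median 187, and 180 to 248 in Soy-10%, median 223. Hars, for histidine, whose annotated span overlaps that of Hars2 on the other strand, stood at 0.19 ± 0.08 (adjusted p = 0.107). Mars1 was at 0.20 ± 0.10 (adjusted p = 0.154), with 459 to 608 normalized counts against 560 to 741. It came to 0.40 ± 0.11 with the slope in the fit (adjusted p = 0.0618) and to 0.37 ± 0.11 without the 4 livers (adjusted p = 0.103), the highest of the members in both. Mars2 had the highest value with all livers and no slope, 0.39 ± 0.27 (adjusted p = 0.321), at 7.67 to 25.4 normalized counts against 15.6 to 29.1, and came to 0.07 ± 0.33 and 0.13 ± 0.29 in the other settings. Cars (0.27 and 0.29) and Hars (0.19 and 0.22) moved little. Cars2 was at 0.03 ± 0.13 (adjusted p = 0.9).

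Against Soy-20%, the control without added sulfur amino acids, compared with the same Soy-10% livers, no member passed the test either, where 0.319% of 11897 genes rose and 0.546% fell. By the edgeR test 5 of 38 members, all cytosolic, had an unadjusted p under 0.05, against 12.3% of all genes, and DESeq2 also called none. These 5 all had positive values, led by Gars with 288 to 344 normalized counts in Soy-20% and 348 to 430 in Soy-10%, a difference without overlap, as in 0.597% of genes, and a log2 fold change of 0.26 ± 0.07 (adjusted p = 0.107). Cars was at 0.26 ± 0.12 (adjusted p = 0.377) and Mars1 at 0.23 ± 0.08 (adjusted p = 0.222). The medians were 0.08 for cytosolic and 0.03 for mitochondrial members.

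The casein effect was larger than the soy effect for 4 cytosolic members. The difference was tested as the casein log2 fold change minus that of Soy-10% against Soy-20% + SAA, in the 24 livers of these 4 diets. It passed in the positive direction for Cars (0.64 ± 0.14, adjusted p = 0.00608), Sars (0.60 ± 0.13, adjusted p = 0.0064), Gars (0.45 ± 0.11, adjusted p = 0.0142) and Mars1 (0.44 ± 0.14, adjusted p = 0.0497). It passed in the negative direction for Nars2 (−0.77 ± 0.22, adjusted p = 0.0327). With 1 liver left out at a time the call ended in 18 of 24 fits for Mars1 and in 9 of 24 for Nars2, and in none for Cars, Sars and Gars. Among 12532 genes 3.2% passed in the positive and 5.49% in the negative direction. The median difference was 0.26 for cytosolic and 0.02 for mitochondrial members, and 0.01 for all genes.

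These differences depended unequally on the control livers. For Sars the difference passed in every setting run, at 0.53 ± 0.14 with the GC slope in the fit (adjusted p = 0.0281), 0.42 ± 0.11 with Soy-20% as the soy control (adjusted p = 0.0222) and 0.49 ± 0.13 without Soy-20% + SAA livers 3 to 6 (adjusted p = 0.0482). Cars gave 0.61 ± 0.15 (adjusted p = 0.0177), 0.63 ± 0.16 (adjusted p = 0.0167) and 0.60 ± 0.17 (adjusted p = 0.0618) in the same order. Its call ended in the third, where livers 1 and 2 were the only Soy-20% + SAA livers left. Gars gave 0.33, 0.32 and 0.32, none of which passed, and Mars1 gave 0.32, 0.42 and 0.28, of which the second passed (adjusted p = 0.0486). Nars2 gave −0.40, −0.41 and −0.28, none of which passed, and its Soy-20% + SAA level was 130 and 131 normalized counts in livers 1 and 2, 101 in liver 3 and 62.5 to 70.9 in livers 4 to 6. In all, 2 members were called with the slope in the fit, 3 against Soy-20% and 1 without the 4 livers. What the library slope contributed was not tested further.

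**Figure D3:**
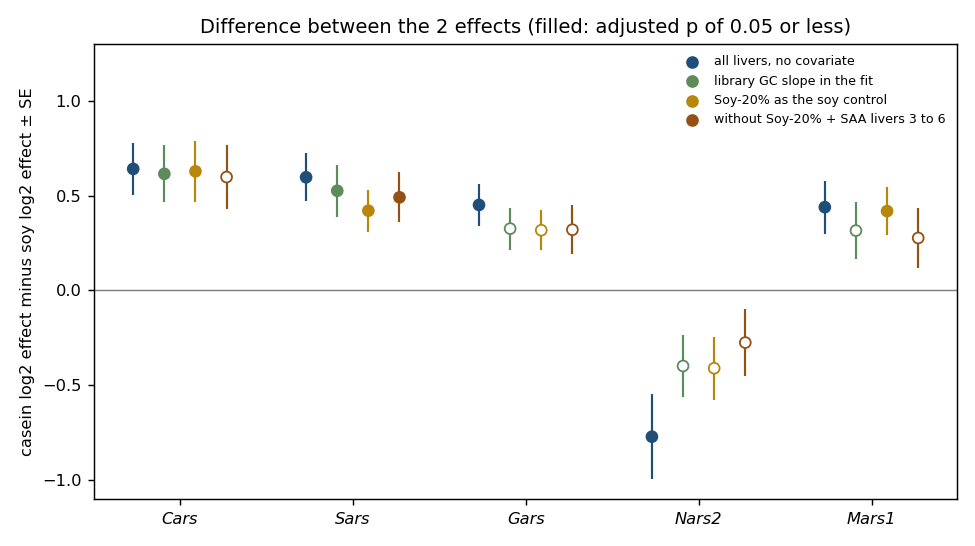
Casein log2 effect minus soy log2 effect ± SE for the 5 members that passed the test of that difference, under 4 settings (colours), with filled points for an adjusted p of 0.05 or less. Sars stays filled in all 4 (0.42 to 0.60), Cars keeps its size but is open without Soy-20% + SAA livers 3 to 6 (0.60), and Nars2 moves from −0.77 to between −0.41 and −0.28 with open points.

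The restricted diets were also compared directly with each other. These diets differ in protein source and in protein level. Without a control diet in the comparison, source, level and restriction cannot be told apart. Between Cas-5% and Soy-10%, 6 members were higher in Cas-5%, all cytosolic, and 1 was lower. Of 12041 genes, 4.59% were higher and 6.14% lower. Cars was higher by 0.56 ± 0.08 on the log2 scale (adjusted p = 0.000133) and Sars by 0.43 ± 0.08 (adjusted p = 0.00164), both without overlap, since Cars had at least 297 normalized counts in Cas-5% and at most 248 in Soy-10%. Among all genes 1.77% were higher and 4.09% lower without overlap. Iars was higher by 0.37 ± 0.09 (adjusted p = 0.00987), Lars by 0.28 ± 0.08 (adjusted p = 0.0356), Gars by 0.26 ± 0.07 (adjusted p = 0.0273) and Eprs by 0.22 ± 0.06 (adjusted p = 0.0248). Lars and Eprs had not passed the test under casein restriction (adjusted p = 0.0578 and 0.68). Nars2 was lower, at −0.33 ± 0.10 (adjusted p = 0.0442). Cars, Sars and Iars kept their calls whichever liver was left out, while the count of members called ran from 3 (without Cas-5% liver 1 or 4, or Soy-10% liver 1) to 8. It was 6 without Soy-10% liver 4.

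Among the control diets 1 member passed the test in edgeR. Between Soy-20% and Soy-20% + SAA, which differ in added sulfur amino acids, no member passed, where 0.00838% of 11932 genes did. At an unadjusted p under 0.05 there were 4 of 38 members and 24.2% of genes. DESeq2, fitted without the GC slope, called Farsa and Farsb lower in Soy-20%. Farsb had 483 to 588 normalized counts in Soy-20%, 571 and 529 in Soy-20% + SAA livers 1 and 2, and 595 to 727 in livers 3 to 6. What the library slope contributed to these calls was not tested. Between Cas-20% and Soy-20% + SAA no member was higher, against 1.42% of 11988 genes, and Farsa was lower by the test at −0.53 ± 0.13 (adjusted p = 0.0493), against 1.01% of genes. That call ended with the GC slope in the fit (−0.32), without Soy-20% + SAA livers 3 to 6 (−0.28), and without each of 10 of the 12 livers taken singly, while 1 fit over all 30 livers called 8 members. The unadjusted p was under 0.05 for 11 of 38 members and 26.2% of genes.

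Over the 5 diets together, 16 of 38 members differed in level, against 43.4% of 12561 genes, so the members' share was close to that of genes at large. They were 11 of the 20 cytosolic and 5 of the 18 mitochondrial members. By the range of fitted levels over the diets Cars came first, at 0.89 on the log2 scale, followed by Yars (0.72) and Mars1 (0.64). For Cars the order of the medians was Cas-20% (173), Soy-20% + SAA (187), Soy-20% (190), Soy-10% (223) and Cas-5% (319), of which the last stood clear of all others and the first 4 overlapped with their neighbours. Mars1 had the same diets at both ends, with medians of 419 in Cas-20%, 509 in Soy-20%, 522 in Soy-20% + SAA, 584 in Soy-10% and 680 in Cas-5%. Nars2 had its lowest medians in Soy-20% + SAA (85.8) and Cas-5% (89.7) and its highest in Cas-20% (124).

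As a summary of each class, the log2 levels of its members were centred on their mean over the 30 livers and averaged within each liver. The cytosolic mean was −0.10 ± 0.12 (SD, n = 6) in Cas-20% and 0.16 ± 0.04 in Cas-5%, and all Cas-5% livers, at 0.10 to 0.21, lay above all Cas-20% livers, at −0.28 to 0.04. In soy it was −0.08 ± 0.10 in Soy-20%, 0.00 ± 0.09 in Soy-20% + SAA and 0.02 ± 0.06 in Soy-10%, with overlap throughout. The mitochondrial mean lay between −0.05 ± 0.07 in Cas-5% and 0.04 ± 0.08 in Soy-20% + SAA and overlapped between all diets. With Tarsl2 counted as cytosolic and Gars and Kars left out, 7 cytosolic members rose in Cas-5% and the medians were 0.17 for the cytosolic and −0.06 for the mitochondrial members.

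**Figure D4:**
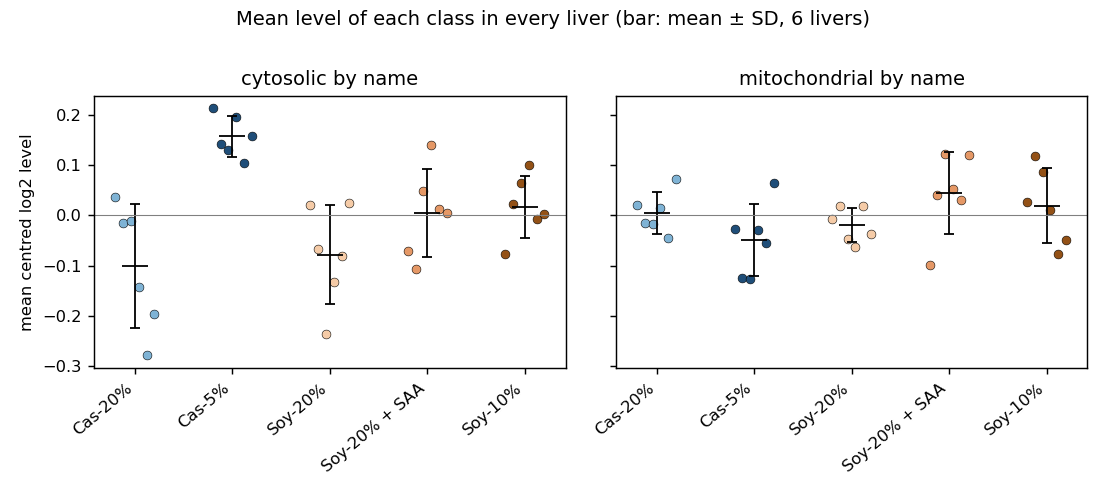
Mean centred log2 level of the 20 cytosolic members (left) and the 18 mitochondrial members (right) in each of the 30 livers, by diet, with bars for the mean ± SD of 6 livers. The 6 Cas-5% livers (0.10 to 0.21) lie above the 6 Cas-20% livers (−0.28 to 0.04) on the left, and the diets overlap on the right.

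The genes around the synthetases moved in different directions under casein restriction. Of all 12076 genes tested between these diets, 11.6% rose and 13.3% fell. Of the scaffold proteins that hold several cytosolic synthetases in 1 complex, Aimp1 rose by 0.19 ± 0.06 on the log2 scale (adjusted p = 0.0383), and Aimp2 (−0.16 ± 0.10) and Eef1e1 (−0.20 ± 0.14) did not pass the test. Of 4 measured genes for proofreading and export, the transfer RNA exporter Xpot rose by 0.35 ± 0.10 (adjusted p = 0.0156), while Dtd1 and Dtd2, which clear D-amino acids from transfer RNA, fell by 0.34 and 0.29 (adjusted p = 0.0332 and 0.0293). Mitochondria charge glutamine transfer RNA without a synthetase of its own, through an amidotransferase. Its subunit gene Gatb had 177 to 211 normalized counts in Cas-20% and 131 to 153 in Cas-5% and fell by 0.42 ± 0.08 (adjusted p = 0.000698), and Gatc, Qrsl1 and the formyltransferase gene Mtfmt did not pass the test.

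Of the 13 tested genes of the GCN2 and ATF4 arm, 8 rose in Cas-5% and none fell, against 11.6% and 13.3% of all genes. Psat1, of serine synthesis, went from 1.93 to 7.01 normalized counts in Cas-20% to 131 to 172 in Cas-5%, a log2 fold change of 5.02 ± 0.17 (adjusted p = 1.3e-11). Asns, asparagine synthetase, went from 7.75 to 46.6 normalized counts to 247 to 351, a log2 fold change of 3.76 ± 0.24 (adjusted p = 1.28e-08). Phgdh, the first enzyme of serine synthesis, was listed at 0 in all 6 Cas-20% livers and had 16.7 to 62.1 normalized counts in Cas-5% (adjusted p = 1.73e-05). Eif4ebp1, a translation inhibitor, rose by 0.68 ± 0.08 (adjusted p = 6.11e-06) and the stress sensor Sesn2 by 0.80 ± 0.13 (adjusted p = 0.000233). Atf5, Trib3 and Chac1 rose as well. The transcripts of Atf4 (0.20 ± 0.13, adjusted p = 0.286) and Eif2ak4 (0.26 ± 0.11, adjusted p = 0.0938) did not pass the test.

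Under soy restriction 3 of 12 tested genes of that arm rose and 0 fell, against 8.51% and 8.47% of all genes. Psat1 rose by 3.60 ± 0.40 (adjusted p = 0.000202), Asns by 2.80 ± 0.44 (adjusted p = 0.0013) and Eif4ebp1 by 0.39 ± 0.08 (adjusted p = 0.00713). Against Soy-20%, a comparison that uses the same Soy-10% livers, Asns was at 2.79 ± 0.23 (adjusted p = 1.95e-05), Psat1 at 2.87 ± 0.36 (adjusted p = 0.00124) and Eif4ebp1 at 0.33 ± 0.07 (adjusted p = 0.0386). These 3 also rose with the GC slope in the fit and without Soy-20% + SAA livers 3 to 6, Eif4ebp1 by 0.52 and 0.54. Xpot rose by 0.61 ± 0.16 against Soy-20% + SAA (adjusted p = 0.0192) but not with the slope (0.24 ± 0.13), without the 4 livers (0.19 ± 0.12) or against Soy-20%. Of all 24 pathway genes tested for the difference between the effects, only Atf5 passed, at 0.64 ± 0.18 (adjusted p = 0.0269). Among all genes 3.2% passed in the positive and 5.49% in the negative direction. Atf5 did not pass with the slope (0.34 ± 0.15), without the 4 livers (0.38 ± 0.20) or with Soy-20% as the soy control (0.37 ± 0.16). Psat1 was at 1.41 ± 0.57 (adjusted p = 0.115) and Asns at 0.95 ± 0.56 (adjusted p = 0.288). With Soy-20% as the control Psat1 passed at 2.15 ± 0.52 (adjusted p = 0.0119) and Eif4ebp1 at 0.34 ± 0.10 (adjusted p = 0.044). Directly between Cas-5% and Soy-10%, 7 of 13 tested arm genes were higher in Cas-5% and 0 lower, against 4.59% and 6.14% of all genes. Phgdh (3.57 ± 0.42, adjusted p = 4.26e-05), Psat1 (1.43 ± 0.21, adjusted p = 0.000324), Asns (0.94 ± 0.17, adjusted p = 0.00176), Sesn2 and Atf5 did not overlap, as in 1.77% of genes. Eif2ak4 and Ddit3 were higher with overlap.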

How the data were processed

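Livers were sequenced by the authors as QuantSeq 3′ FWD libraries, 1 per mouse, and mapped with the Bluebee QuantSeq pipeline (aligner not given in the sources used here); the processing notes name R 4.0.3 and DESeq2 1.30. The deposited raw counts per gene entered all tests. The deposited normalized signal, which the authors made by dividing counts by a size factor per library (0.759 to 1.297), gave the printed levels. Both tables hold genes with a total of at least 90 counts. Groups follow the diet labels.

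Here, edgeR 4.0.16 (R 4.3.3; filterByExpr, TMM, quasi-likelihood F test, Benjamini-Hochberg over all genes tested, 0.05) was fitted to the diets compared, and SE was taken as the log2 fold change over the root of F. DESeq2 1.42.0 was an alternative. The scripts were tested on simulated data. GC slopes used 11214 genes and the last 200 nucleotides of GENCODE M21 transcripts. Tables and plots used Python 3.11.15.

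The members and gene lists were chosen with earlier results of these data known. Named members were Mars1, Mars2, Cars, Cars2, the 8 with the smallest adjusted p in each restriction, the extremes, those called in the difference of effects, and the 5 pathway genes with the smallest adjusted p for casein; 1 of these members is not reported here. Aarsd1, Slc7a11, Cela2a, Amy2a5, Adipoq, Plin1 and Lep were not analysed here. No 2 livers of a diet were alike within counting noise (chi-square per gene at least 6.12 over 75 pairs).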

Additional observations from a re-analysis of the deposited data

Results flagged for a closer look

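Among 90 sets of 6 livers (18 named members in 5 diets), 2 held a liver far from the others by Dixon's test, when chance gives about 1 in 20. Mars1 was at 622 normalized counts in Soy-20% liver 1, and the next value was 528. Vars2 was at 92.2 in Cas-5% liver 3, and the next value was 119. Without that liver the Vars2 call under casein restriction was kept.

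The casein and soy effects differed by the test of the difference itself for Cars (0.64 on the log2 scale), Sars (0.60), Gars (0.45), Mars1 (0.44) and Nars2 (−0.77). Of these, the value of Sars passed in all 9 other settings, Cars in 8, Gars and Nars2 in 6 and Mars1 in 5.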

How the results depend on the processing

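Under casein restriction the count of 10 members ran from 9 to 12 with 1 liver left out and the 8 cytosolic rises from 7 to 9, and 1 fit over all 30 livers gave 11 and 9. The median of the cytosolic members ran from 0.17 to 0.22 and that of the mitochondrial members from −0.10 to −0.03. In casein, livers with the same number did not deviate together (correlations −0.10 to 0.08), and 0 of 12 livers correlated best with their own number. In soy the correlations ran from −0.06 to 0.20, and 5 of 12 livers correlated best with their own number. The numbers were not taken as pairs, and a replicate block was run as another setting. With the replicate block 9 casein members were called, and Vars2 (0.33, adjusted p = 0.0545) was not. The block gave 0 in place of 1 member between Cas-20% and Soy-20% + SAA, and 5 in the difference of effects.

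The soy count of 2 became 0 with the GC slope and without Soy-20% + SAA livers 3 to 6, 5 in 1 fit over 30 livers, and 0 to 5 with 1 liver left out. The difference of effects, 5 members, gave 2 with the slope, 1 without those livers, 3 against Soy-20%, and 3 to 7 with 1 liver left out. Its cytosolic median of 0.26 fell to 0.15, 0.11 and 0.15 under these settings and ran from 0.21 to 0.31 with 1 liver left out, and its mitochondrial median was −0.040 without the 4 livers and −0.028 to 0.096 with 1 left out (0.096 without Cas-20% liver 1). Between Soy-20% and Soy-20% + SAA, DESeq2 called 2, the fit over 30 livers 3, and leaving out 1 liver 0 to 2. Between Cas-20% and Soy-20% + SAA the single call became 2 with DESeq2, 0 with no filter, 0 with the slope, 0 without the 4 livers, 8 in 1 fit over 30 livers and 0 to 6 with 1 left out. Cas-5% against Soy-10% gave 3 to 8. The 5-diet count of 16 ran from 11 to 17. The cause of each change was not tested. Mars2 and Pars2, with raw counts under 10 in some livers, had standard errors of 0.19 and 0.24 for casein, and Sars2 had 0.20.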

Other observations

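Groupings of the cytosolic members by textbook knowledge, chosen after their values were seen, are given as counts without a test, beside the 11.6% of all genes that rose under casein restriction. Of the 8 members of the multi-synthetase complex (Dars, Eprs, Iars, Kars, Lars, Mars1, Qars, Rars), 2 rose, with a median log2 fold change of 0.11. Of the 12 outside it 6 rose, with a median of 0.22. Among the 10 enzymes for amino acids that mammals can make (Aars, Cars, Dars, Eprs, Gars, Nars, Qars, Rars, Sars, Yars), 6 rose, with a median of 0.29, and among the 10 genes for the others 2 rose, Iars and Mars1, with a median of 0.14. Under soy restriction the medians of these last groups were 0.01 and 0.06. The phenylalanyl enzyme has an alpha and a beta subunit, and neither Farsa (0.17 ± 0.12) nor Farsb (0.04 ± 0.09) passed the test under casein restriction.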
